A study of Mus musculus with 2 samples.

Results

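Genes of lipid handling and cholesterol export were followed through the retinal myeloid cells of mice with and without oxygen-induced retinopathy (OIR). They were Apoe, Lpl, Fabp5, Abca1, Abcg1, Plin2, Soat1 and Scd2, listed by symbol, 8 of the 31053 genes in both matrices. Retinas of C57BL/6j mice at postnatal day 17 were dissociated, and cells positive for CD11b and F4/80 were sorted for 10x Genomics 3′ sequencing. OIR pups had passed through high oxygen and then returned to room air, which leads to abnormal new vessels in the retina, and control pups stayed in room air (RA). Each condition was 1 library pooled from retinas of several mice, so cells were not replicates, no test between conditions was made, and a difference between libraries cannot be told apart from one between litters or preparations. All intervals given are 95% and cover counting error only.

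The RA library held 1449 cells with a median of 8607 transcripts counted by unique molecular identifier (UMI), and the OIR library 1259 cells with a median of 5254. After filtering, 1295 RA and 1179 OIR cells were clustered, and the libraries shared 0 cell barcodes. Clusters were matched to marker lists and gave microglia-like, dividing, macrophage-like, monocyte-like and rod-like cells, called microglia, dividing cells, macrophages, monocytes and rods from here on. All 10 microglial markers were found in microglia of both libraries, at a summed level of 20972 in RA and 23935 in OIR, in CPM (UMIs scaled to an equal total in every class). The macrophage list summed to 6538 and 5839 CPM in macrophages, the monocyte list to 7617 and 4470 CPM in monocytes, and the rod list to 103649 and 102829 CPM in rods. The libraries stood apart in the nuclear RNA Malat1, which made up 1.84% of microglial UMIs in RA and 0.648% in OIR, with a like gap in macrophages, monocytes and dividing cells. Without integration of the libraries nearly all OIR microglia fell outside the homeostatic clusters, with 16 OIR cells left in them.

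Microglia and macrophages take up lipid from lipoproteins, dying cells and myelin, store part of it as esters in droplets and return cholesterol to extracellular carriers. Apoe is the main carrier protein of that traffic in nervous tissue, Lpl frees fatty acids from lipoproteins and Fabp5 carries them inside the cell. Soat1 esterifies cholesterol, Plin2 coats the droplets, Scd2 desaturates fatty acids, and Abca1 and Abcg1 move cholesterol out under control of the oxysterol receptors (LXR). Raised Apoe and Lpl are known marks of microglia in disease.

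The genes lie on mouse build GRCm38.p6 at chr7:19696244-19701310 (Apoe), chr8:68880555-68906932 (Lpl), chr3:10012585-10016610 (Fabp5), chr4:53030789-53159988 (Abca1), chr17:31057694-31117984 (Abcg1), chr4:86626910-86670217 (Plin2), chr1:156428108-156474328 (Soat1) and chr19:44293676-44306864 (Scd2). RefSeq start sites were found for 4 of the 8, Apoe, Abca1, Plin2 and Soat1. The bases just before the annotated gene are shown for the droplet gene Plin2, whose level differed between the libraries, and for the exporter Abca1 and the esterifying enzyme Soat1, whose levels differed less. All are given 5′ to 3′ on the minus strand of GRCm38.p6, and capitals mark an E-box (CACGTG).
Plin2, chr4:86670218-86670309: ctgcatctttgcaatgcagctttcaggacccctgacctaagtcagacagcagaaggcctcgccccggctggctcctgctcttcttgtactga
Abca1, chr4:53159989-53160145: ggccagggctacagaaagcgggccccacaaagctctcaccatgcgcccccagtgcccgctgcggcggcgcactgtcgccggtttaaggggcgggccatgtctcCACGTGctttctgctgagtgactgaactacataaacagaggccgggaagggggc
Soat1, chr1:156474329-156474578: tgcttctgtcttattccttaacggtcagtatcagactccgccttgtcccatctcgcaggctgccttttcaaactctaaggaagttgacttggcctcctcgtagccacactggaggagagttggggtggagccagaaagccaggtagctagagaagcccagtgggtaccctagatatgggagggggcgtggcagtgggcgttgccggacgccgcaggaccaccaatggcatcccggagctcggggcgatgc
The following motifs were searched on both strands of the 250 bases before each start site, the E-box, the hypoxia core ACGTG, which the E-box contains, and the LXR element known from Abca1, with any base allowed at its centre. Abca1 alone of the 4 held any of them. Its E-box lay at -147 to -142 from its start site, and its LXR element, read there as TGACCGGTAGTAACC, at -67 to -53, inside the annotated gene. The E-box occurred in 6.02% of 32851 mouse promoters, the hypoxia core in 16.6% and the LXR element in 2 promoters (0.00609%). These matches describe the letters of the windows only.

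Levels by cell class are CPM from the UMIs of a gene summed over all cells of the class in 1 library. Apoe, the lipoprotein carrier, stood at 37884 CPM (RA) and 40505 CPM (OIR) in macrophages and at 21000 and 20465 CPM in microglia. Dividing cells held it at 13083 and 13921 CPM, monocytes at 7752 and 15759 CPM, and rods at 157 and 389 CPM. Macrophages were thus first and microglia second in both libraries, with no overlap of intervals, while dividing cells and monocytes changed places.

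Lpl, the lipase, was measured in RA at 208 CPM in dividing cells (149 to 282), 99 in microglia (92.2 to 106), 63.2 in monocytes (45.2 to 86.1) and 44.8 in macrophages (33.3 to 59.1). In OIR it stood at 489 CPM in microglia (468 to 510), 363 in dividing cells (329 to 399), 262 in monocytes (229 to 297) and 166 in macrophages (146 to 188). Microglia had moved to the head of the order, and only the RA monocytes and macrophages overlapped. Rods gave 0 Lpl UMIs in both libraries, which at equal depth allows up to 2.43% of RA and 4.35% of OIR rods with a Lpl UMI and sets no limit on the cells that express the gene.

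Fabp5, the fatty acid carrier, gave in RA 117 CPM in dividing cells (74.0 to 175), 60.0 in monocytes (42.5 to 82.4), 53.1 in microglia (48.2 to 58.4), 32.3 in macrophages (22.6 to 44.7) and 30.7 in rods (14.0 to 58.3). In OIR the order was monocytes at 391 CPM (351 to 435), microglia at 267 (252 to 283), dividing cells at 96.0 (79.1 to 116), macrophages at 66.4 (53.8 to 81.1) and rods at 5.18 (0.131 to 28.9). Monocytes came first in OIR through 1 cell, and without the cell with most Fabp5 UMIs in each class they stood at 212 CPM and microglia at 258 CPM. In RA dividing cells 13 of the 23 Fabp5 UMIs lay in 1 cell, and 58.1 CPM remained without it. RA neighbours in this order overlapped in every case except microglia and macrophages, and in OIR dividing cells and macrophages overlapped.

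The exporters differed in where they were found. Abca1 stood highest in macrophages, at 182 CPM (158 to 209) in RA and 238 CPM (213 to 264) in OIR, followed by microglia at 130 and 151, dividing cells at 96.5 and 130, monocytes at 71.1 and 112 and rods at 6.82 and 15.6 CPM. Of the 5 classes Abcg1 stood highest in monocytes, at 98 CPM (75.1 to 126) in RA and 90.6 CPM (71.9 to 113) in OIR. Macrophages, first for Abca1, held Abcg1 at 14.4 CPM in RA and 27.0 CPM in OIR, and microglia at 40.6 and 57.0 CPM. Rods held Abcg1 at 44.3 CPM from 13 UMIs in RA and 36.3 CPM from 7 UMIs in OIR, with intervals that took in the microglial values. Outside the 5 classes, an unnamed cluster led by Mir124a-1hg and the photoreceptor gene Rpgrip1 held Abcg1 at 68.8 CPM in RA and 107 CPM in OIR.

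Plin2, the droplet coat, gave in RA 232 CPM in monocytes, 137 in macrophages, 81.2 in dividing cells and 50.6 in microglia, with dividing cells overlapping both of their neighbours. In OIR monocytes at 448 CPM (406 to 494) and macrophages at 441 CPM (408 to 477) had overlapping intervals. Dividing cells at 238 CPM (210 to 267) stood above microglia at 199.6 CPM (186 to 214) by a log2 ratio of 0.25 (0.05 to 0.45). Soat1, which makes cholesteryl esters, stood at 117 and 101 CPM in monocytes, 87 and 92.0 in macrophages, 69.0 and 53.2 in microglia and 55.8 and 46.3 in dividing cells (RA and OIR). Scd2, the desaturase, was low everywhere, at 13.6 to 22.3 CPM over the 5 classes in RA and 5.18 to 45.8 CPM in OIR, and its RA intervals all overlapped.

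**Figure D1:**
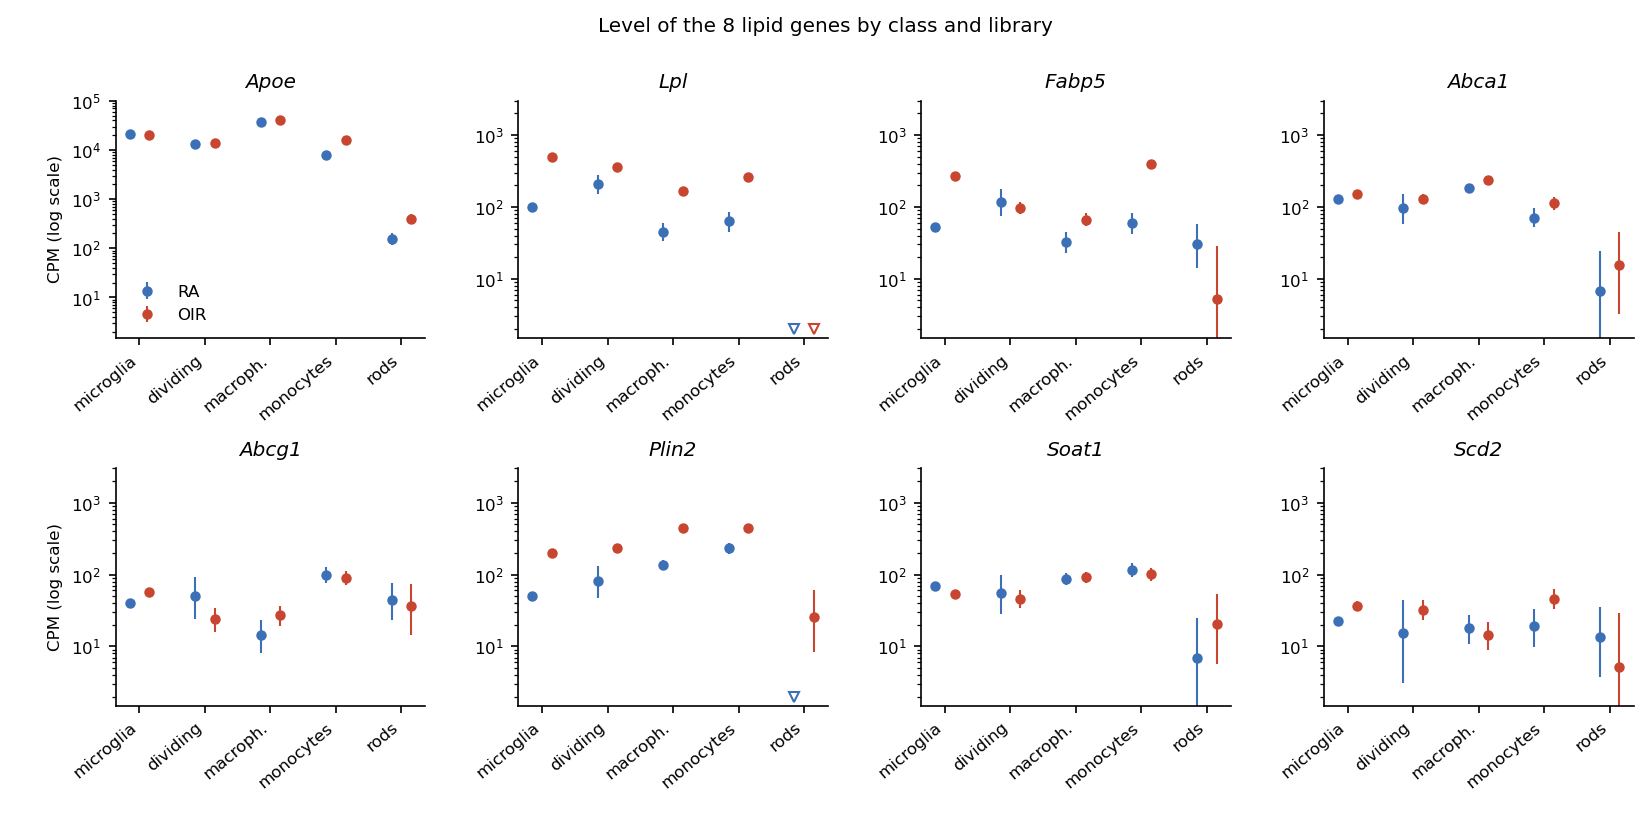
Level of each of the 8 genes in 5 cell classes, in CPM on log axes (Apoe on its own range), with RA in blue and OIR in red. Points are 1 library each, bars are 95% counting intervals and open triangles mark 0 UMIs, as for Lpl in rods of both libraries; Lpl, Fabp5 and Plin2 are the genes whose OIR point lies clearly above the RA point in microglia.

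In microglia (812 RA and 587 OIR cells) Lpl, Fabp5 and Plin2 were higher in OIR by 2-fold or more, and none of the 8 genes was lower by that much. Of the 8, 7 reached 50 CPM, the level for a ratio to be counted. Of the 3135 genes at that level 6.16% were higher and 6.67% lower by 2-fold or more, and 3 of 7 was above the background share. The 8 genes were chosen with earlier results of these data known, so this excess is a description only. The median log2 ratio of OIR over RA was 0.60 over the 8 genes and 0.035 over all genes compared.

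Fabp5 rose from 53.1 to 267 CPM, a log2 ratio of 2.33 (2.17 to 2.50), and Lpl from 99 to 489 CPM, a log2 ratio of 2.30 (2.18 to 2.42). Plin2 rose from 50.6 to 199.6 CPM, or 1.98 (1.81 to 2.15) on the log2 scale. These genes stand for fatty acid release, transport and storage. Each stayed higher by 2-fold or more under all 14 alternative treatments of the data, over log2 ranges of 1.83 to 2.33 for Lpl, 1.14 to 3.0 for Fabp5 and 1.63 to 2.46 for Plin2. The treatment without doublets removed 0 RA and 1 OIR microglia and so could hardly change a ratio. No single cell carried them, since the cell with most UMIs held 6.13% of the OIR Lpl UMIs, 3.82% of Fabp5 and 3.81% of Plin2.

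The exporters and the carrier differed little. Apoe gave a log2 ratio of -0.04 (-0.05 to -0.03) at the levels above. Abca1 gave 0.22 (0.07 to 0.36) and Abcg1 0.49 (0.25 to 0.74), both on the side of OIR and short of 2-fold. The esterifying enzyme Soat1 lay on the other side, at -0.37 (-0.61 to -0.15), and Scd2, below 50 CPM, at 0.72 (0.40 to 1.04).

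Other measures moved with the condition in these cells. A list of 7 genes of disease-associated microglia, among them Spp1, Cst7 and Igf1, summed to 749 CPM in RA and 2368 CPM in OIR, and the homeostatic list (P2ry12, Tmem119, Siglech, Serinc3) to 4273 and 2775 CPM. The red blood cell list rose from 21.6 CPM, with 4 of 5 genes found, to 73.4 CPM with 5 of 5. The monocyte list went from 208 CPM, with 8 of 8 genes found, to 320 CPM with 6 of 8, and the macrophage list from 76.7 to 60.6 CPM. Without the clusters poorest in Malat1 the ratios were 2.25 for Lpl, 2.42 for Fabp5 and 1.80 for Plin2, and Malat1 still differed between the libraries, at 1.90% of UMIs in RA and 0.754% in OIR. The part of the Malat1 gap and of the other lists in the ratios was not tested.

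**Figure D2:**
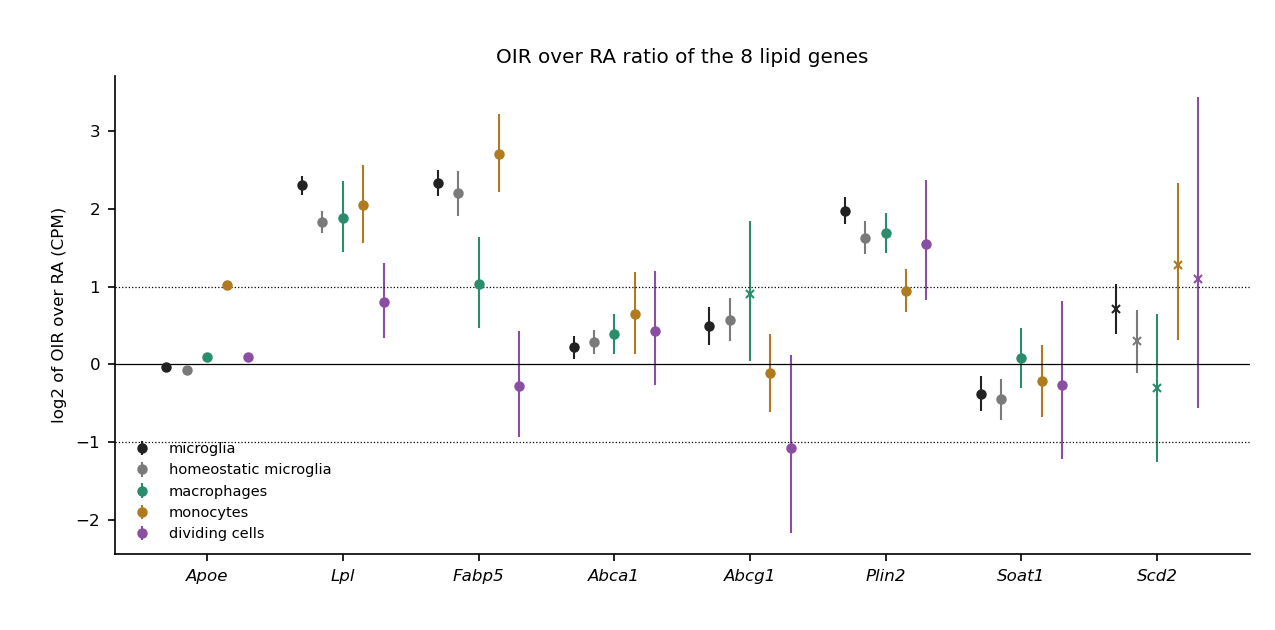
Log2 ratio of OIR over RA for each gene (y axis), by class of cells, with 95% counting intervals; dotted lines mark 2-fold and crosses mark genes under 50 CPM in both libraries. Lpl and Plin2 lie above 0 in every class drawn, while Apoe lies near 0 except in monocytes, at 1.02.

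Shares of cells were compared at an equal depth of 1000 UMIs per cell, so 14 RA and 24 OIR microglia of lower depth were dropped. A Lpl UMI was then found in 8.77% of RA microglia (6.90 to 11) and 26.1% of OIR microglia (22.5 to 29.95). Fabp5 went from 3.01% (1.94 to 4.44) to 16% (13.1 to 19.3) and Plin2 from 4.39% (3.07 to 6.05) to 18.5% (15.4 to 21.9). These were the 3 genes with intervals that did not overlap, and they were the same 3 genes that passed 2-fold in CPM. Both measures come from the same UMIs, and the share of all genes with intervals apart was not counted. The unthinned shares were 40.2% and 57.1% for Lpl, 17.4% and 37.3% for Fabp5 and 32.1% and 51.6% for Plin2.

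The remaining genes showed overlapping shares. Apoe was found in 98.5% of RA and 99.6% of OIR microglia, Abca1 in 8.40% and 11.7%, and Abcg1 in 4.64% and 4.97%. Soat1 was found in 5.26% and 3.91% and Scd2 in 2.26% and 2.49%. Rods, which should hold little of the myeloid transcripts, gave at the same depth 0% for Lpl in both libraries and 0% and 2.41% for Plin2. For Fabp5 the rod share was 4.67% (1.90 to 9.38) in RA and 1.2% (0.0305 to 6.53) in OIR, and for Abcg1 it was 4.67% and 4.82%. Rods held 1.3 (RA) and 0.5 (OIR) Abcg1 UMIs per UMI of the microglial complement gene C1qa, against 0.00658 and 0.00619 in microglia, and in RA 0.9 Fabp5 UMIs against 0.00862. These rod UMIs were thus far from the microglial ratio. Plin2 in OIR was also off it, at 0.357 against 0.0217 from 5 UMIs, as were Abca1, Soat1 and Scd2 in both libraries. Rods were not taken as background for any of these genes. The OIR Fabp5 share of rods rests on 1 UMI.

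**Figure D3:**
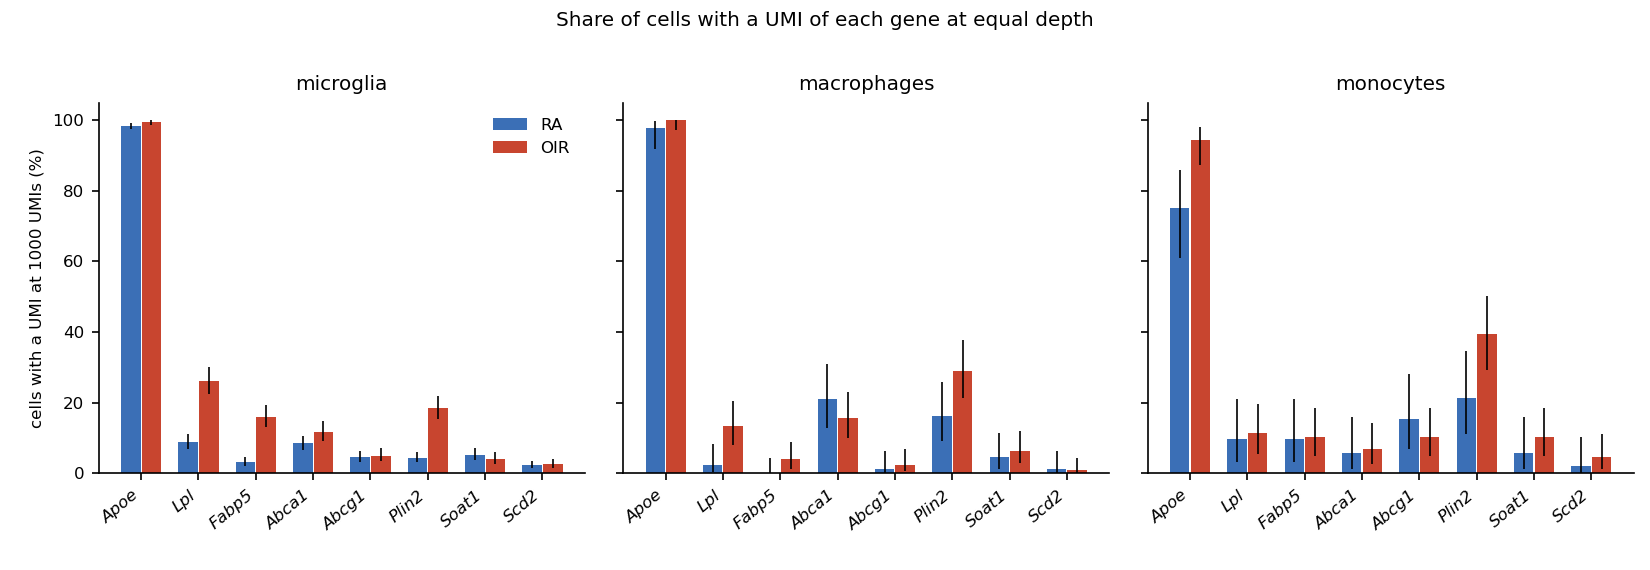
Share of cells (in percent) with at least 1 UMI of each gene after thinning to 1000 UMIs, in microglia, macrophages and monocytes, with RA in blue, OIR in red and exact 95% binomial intervals. In microglia Lpl, Fabp5 and Plin2 separate the libraries, at 26.1%, 16% and 18.5% in OIR against 8.77%, 3.01% and 4.39% in RA.

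The microglia fell into 7 clusters, made without the 8 genes and the lipid lists. Clusters 1, 2, 3 and 6, led by Rrad and Sertad1, by Egr3 and Tnf, by Tmem88 and P2ry12 and by Sgk1 and Adora3, held more of the homeostatic list and are called homeostatic (722 RA and 351 OIR cells). Clusters 4 (led by the crystallin genes Cryba4 and Crybb1, then Cst7 and Capg), 5 (Gclm, Prdx1, Hmox1, Igf1) and 7 (Slc7a11, Csf1 and Igf1 among its leading genes) held more of the disease-associated list and are called activated. The activated clusters made up 11.1% of RA and 40.2% of OIR microglia. Clusters 4 and 5 were shallow, with medians of 2622 and 2418 UMIs, and poor in Malat1, at 0.0899% and 0.00268% of UMIs, whereas cluster 7 had a median of 12076 UMIs and 0.994%. Markers of other cells differed between the libraries in these clusters. The lens list summed to 8718 CPM in RA and 1663 CPM in OIR in cluster 4, and in cluster 5, with 11 RA and 59 OIR cells, the macrophage list to 3015 and 59.1 CPM and the red blood cell list to 2798 and 405 CPM. Their part in the cluster values was not tested.

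Fabp5 marked all of the activated clusters. In OIR it stood at 93.7 CPM in homeostatic cells, 543 CPM in cluster 4, 1741 CPM in cluster 5 and 464 CPM in cluster 7, log2 ratios of 2.53, 4.22 and 2.31 over homeostatic cells. In RA the same clusters held 637, 1592 and 237 CPM against 20.4 CPM. Within cluster 4 the libraries did not differ beyond counting error, with a log2 ratio of OIR over RA of -0.23 (-0.54 to 0.09). Cluster 5 gave 0.13 (-0.25 to 0.53). The RA value of cluster 5 rests on 66 Fabp5 UMIs in 11 cells. Among RA microglia the cell with most Fabp5 UMIs held 33. That cell had 9386 UMIs, the depth of the deepest RA cell of cluster 5. The cluster 5 ratio without it was not computed, so 0.13 is not read as likeness of the libraries there. Cluster 7 was higher in OIR by 0.97 (0.57 to 1.39) and homeostatic cells by 2.20 (1.91 to 2.49).

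Lpl also differed by condition within clusters. It stood in OIR at 319 CPM in homeostatic cells, 398 CPM in cluster 4, 1327 CPM in cluster 5 and 1184 CPM in cluster 7. Clusters 5 and 7 were thus above homeostatic cells by log2 ratios of 2.06 (1.86 to 2.25) and 1.89 (1.75 to 2.04), and cluster 4 by 0.32 (0.06 to 0.57). Between the libraries Lpl was higher in OIR by 2-fold or more in 6 of the 7 clusters, by log2 ratios of 1.48 to 2.39, and by 0.53 (0.04 to 1.06) in cluster 5. In all homeostatic cells it rose from 89.7 to 319 CPM, a log2 ratio of 1.83 (1.69 to 1.97).

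Plin2 followed Lpl in part. It stood in OIR at 144 CPM in homeostatic cells and 279, 486 and 346 CPM in clusters 4, 5 and 7, with log2 ratios of 0.96, 1.76 and 1.27. In homeostatic cells it rose from 46.4 to 144 CPM, or 1.63 (1.43 to 1.84) on the log2 scale. The exporter Abca1 went the other way in the shallow clusters, at 158 CPM in OIR homeostatic cells against 47.4 CPM in cluster 4 and 36.4 CPM in cluster 5, log2 ratios of -1.74 (-2.51 to -1.07) and -2.12 (-3.34 to -1.13). Cluster 7 held Malat1 at 0.76% of UMIs in OIR, beside 0.75% in OIR homeostatic cells. There Abca1 stood at 232 CPM, a log2 ratio of 0.55 (0.25 to 0.84).

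Among the 8 genes, 1 was higher and 2 (Abca1, Soat1) lower by 2-fold or more in cluster 4, against 6.67% and 21.5% of all genes compared. In cluster 5, 3 genes (Lpl, Fabp5, Plin2) were higher and 2 (Abca1, Abcg1) lower, against 11.9% and 35.7%. Abcg1 had 6 UMIs in that cluster, and its log2 ratio of -1.09 (-2.56 to 0.06) had an interval that took in 0. In cluster 7, 5 genes (Lpl, Fabp5, Plin2, Soat1, Scd2) were higher and 0 lower, against 4.53% and 3.8%. The lower genes of clusters 4 and 5 thus stood against a background in which many genes were lower. Each of them reached 50 CPM in homeostatic cells and not in the cluster where it was lower. Scd2 was at 86.0 CPM in cluster 7 against 25.4 CPM in homeostatic cells, a log2 ratio of 1.76 (1.2 to 2.31). It was thus counted there only through the group in which it was high. Apoe kept between -0.35 and 0.20 in these 3 clusters.

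The activated clusters held 27.0% of the UMIs of OIR microglia but 74.4% of their Fabp5 UMIs, 52.3% of their Lpl and 47.4% of their Plin2. In RA they held 6.66% of all UMIs and 64.2%, 15.5% and 14.5% of those of the 3 genes. In both libraries the share of each of the 3 genes was above that of all UMIs, and the activated clusters held more of all UMIs in OIR. The cluster values depend on how the cells were grouped. With the 8 genes and the lipid lists kept among the genes used for integration, Lpl in cluster 4 turned to -0.15 (-0.46 to 0.15) and Plin2 there gave 0.30 (-0.11 to 0.68). In cluster 5 Lpl then gave 1.24, Fabp5 3.47 and Abca1 -1.13, with 104 OIR cells in place of 59. The cluster results also rest on integration. Without it the log2 ratio of activated over homeostatic was -0.91 for Lpl, against 1.57 with it, and 16 OIR cells were left in homeostatic clusters. No match for clusters 4, 5 and 7 was sought without integration.

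**Figure D4:**
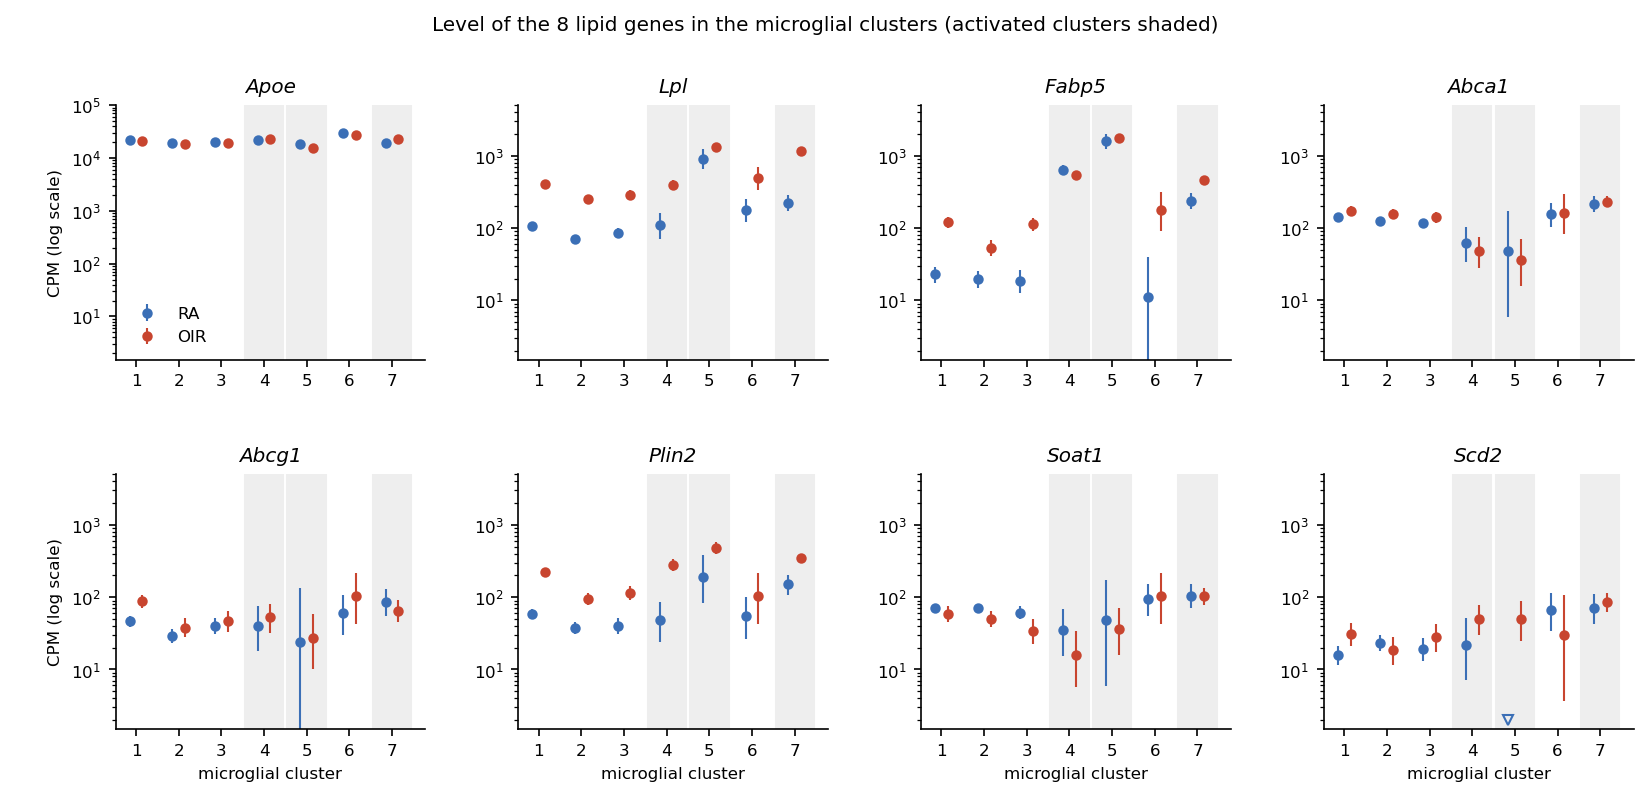
Level of each gene in the 7 microglial clusters, in CPM on log axes, with RA in blue, OIR in red, 95% counting intervals and the activated clusters 4, 5 and 7 shaded; an open triangle marks 0 UMIs. Fabp5 stands at 464 to 1741 CPM in the OIR activated clusters against 93.7 CPM in homeostatic cells, and Abca1 at 36.4 and 47.4 CPM in clusters 5 and 4.

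The genes were next followed in single microglia, thinned to 3000 UMIs (763 RA and 437 OIR cells). In OIR, Fabp5 was found in 38.6% of cells with a Lpl UMI (31.8 to 45.8) and in 14.6% of cells without one (10.4 to 19.7). Plin2 was found in 44.2% (37.1 to 51.4) and 22.9% (17.8 to 28.8) of these cells, and in 46.0% (36.5 to 55.7) of cells with and 27.9% (23.1 to 33.1) of cells without Fabp5. In OIR each of these genes was thus found more often in cells that held another of them, over homeostatic and activated clusters together. Within homeostatic OIR cells Fabp5 was still found in 23.1% (16 to 31.7) of cells with and 10.4% (6.59 to 15.5) of cells without Lpl. The Plin2 shares there overlapped, at 30.6% (22.5 to 39.6) and 19.9% (14.6 to 26.1) with and without Lpl and 30.6% (18.2 to 45.4) and 22.7% (17.9 to 28.1) with and without Fabp5. In RA the same shares overlapped, at 8.5% and 6.89% for Fabp5 and 15% and 11.5% for Plin2, with and without Lpl. Abcg1 was found in 10.7% of OIR cells with Lpl and 12.5% of those without, and the intervals for Abca1, Soat1 and Scd2 with and without Lpl overlapped likewise. Other pairs of the 8 separated too. Abcg1 was found in 19.2% (12.6 to 27.4) of OIR cells with and 8.83% (5.95 to 12.5) of cells without Abca1, and in RA in 19.1% (14.0 to 25.1) and 9.03% (6.77 to 11.7). Abca1 was found in 49.2% (36.6 to 61.9) of OIR cells with and 23.7% (19.4 to 28.3) of cells without Soat1, and Soat1 in 39.3% (21.5 to 59.4) and 13.2% (10.1 to 16.9) of those with and without Scd2. These did not separate in RA, with Abca1 at 22.6% and 28.4% with and without Soat1. Soat1 stood there at 20% and 17.3% with and without Scd2. Within homeostatic OIR cells the intervals of all these pairs overlapped. Abcg1 was found there in 17.7% and 9.29% of cells with and without Abca1. Abca1 was found in 46.8% and 26.9% by Soat1, and Soat1 in 29.4% and 13.8% by Scd2. Within homeostatic RA cells Abcg1 still separated by Abca1. It was found in 19.9% (14.55 to 26.18) of those cells with and 8.27% (6.02 to 11.01) of those without Abca1.

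In macrophages (86 RA and 131 OIR cells) Lpl, Fabp5 and Plin2 were again the genes at 2-fold or more, 3 of the 6 that reached 50 CPM, with 0 lower, against 8.8% of all genes compared higher and 6.58% lower. Lpl and Fabp5 reached that level in OIR and not in RA. Plin2 rose from 137 to 441 CPM, a log2 ratio of 1.69 (1.43 to 1.95), and its share of cells at 1000 UMIs was 16.3% (9.20 to 25.8) in RA and 28.9% (21.2 to 37.6) in OIR. Lpl rose from 44.8 to 166 CPM, or 1.89 (1.44 to 2.36), with shares of 2.33% (0.283 to 8.15) and 13.3% (7.93 to 20.4), and for both genes the intervals of the shares overlapped. Fabp5 rose from 32.3 to 66.4 CPM, a log2 ratio of 1.04 (0.47 to 1.64) that passed 2-fold in 11 of 16 alternatives.

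The other genes of macrophages differed by less than 2-fold. Apoe gave 0.10, Abca1 0.39 (0.13 to 0.64) and Soat1 0.08 (-0.31 to 0.47) on the log2 scale. Abcg1 gave 0.91 (0.04 to 1.85) and Scd2 -0.30 (-1.26 to 0.65), both below 50 CPM. Macrophages also held microglial transcripts, with all 10 markers of the microglia list found in both libraries and 7 of them (leaving out 3 that other myeloid cells also express) summing to 2345 CPM in RA and 2705 CPM in OIR. Without cells that had more UMIs of these 7 than of the macrophage list (74 RA and 104 OIR cells kept), Lpl gave 2.07, Plin2 1.71 and Fabp5 0.62. Counting all 10 markers kept 30 RA and 24 OIR cells, in which Plin2 gave 0.19 (-0.39 to 0.76) and Lpl had 2 and 3 UMIs.

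In monocytes (52 RA and 91 OIR cells) Apoe, Lpl and Fabp5 were higher by 2-fold or more, 3 of the 7 that reached 50 CPM, and 0 lower, against 6.49% of all genes compared higher and 7.57% lower. Apoe rose from 7752 to 15759 CPM, a log2 ratio of 1.02 (0.98 to 1.07), and its share at 1000 UMIs from 75.0% (61.1 to 86.0) to 94.4% (87.4 to 98.2). Apoe passed 2-fold here in 10 of 15 alternatives, and how this ratio compares with those of the other classes was not tested. Plin2 went from 232 to 448 CPM, or 0.95 (0.67 to 1.23), with shares of 21.2% (11.1 to 34.7) and 39.3% (29.1 to 50.3).

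Lpl and Fabp5 in monocytes rested on few cells. Lpl gave 63.2 and 262 CPM, a log2 ratio of 2.05 (1.56 to 2.57), yet shares of 9.62% (3.20 to 21) and 11.2% (5.52 to 19.7). Fabp5 gave 60.0 and 391 CPM, or 2.70 (2.22 to 3.23), with shares of 9.62% and 10.1%, and 164 of its 350 OIR UMIs lay in 1 cell. That cell had 15193 UMIs, of which 2174 came from the disease-associated list and 3 from the monocyte list. Without the top cell of each library Fabp5 stood at 53.7 CPM in RA and 212 CPM in OIR. The disease-associated list summed to 253 CPM in RA monocytes and 3483 CPM in OIR monocytes, or 257 and 1070 CPM without those cells, and the microglia list to 4639 and 8468 CPM, with all 10 genes found in each.

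Leaving out monocytes with more UMIs of the 7 microglial markers than of their own list (46 RA and 75 OIR cells kept) gave 2.09 for Lpl, 1.75 for Fabp5, 0.95 for Apoe and 0.94 for Plin2. With all 10 markers (41 and 54 cells kept) Lpl fell to 0.18 (-0.87 to 1.22) and Fabp5 to 0.15 (-0.68 to 0.97), below 2-fold, whereas Apoe gave 0.66 (0.57 to 0.75) and Plin2 1.03 (0.66 to 1.40). The exporters and Soat1 differed by less than 2-fold in all monocytes, with Abca1 at 0.65 (0.13 to 1.19), Abcg1 at -0.11 (-0.61 to 0.39) and Soat1 at -0.22 (-0.68 to 0.25). Scd2, under 50 CPM, gave 1.27 (0.32 to 2.34).

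Dividing cells numbered 16 in RA and 111 in OIR, so the RA values carry wide intervals. Plin2 was higher in OIR by 2-fold or more and Abcg1 lower, 1 each of the 7 genes that reached 50 CPM, against 11.2% of all genes compared higher and 11.3% lower. Plin2 gave 81.2 CPM from 16 UMIs in RA and 238 CPM in OIR, a log2 ratio of 1.55 (0.82 to 2.38). Abcg1 gave 50.8 and 24.0 CPM, or -1.08 (-2.17 to 0.13), from 10 and 28 UMIs, and reached 50 CPM in RA only. Both turned direction under 1 alternative, Plin2 to -0.11 after thinning and Abcg1 to 0.59 without integration. Lpl stood at 208 and 363 CPM (0.80, 0.34 to 1.3), Fabp5 at 117 and 96.0 CPM (-0.28, -0.94 to 0.43) and Apoe at a log2 ratio of 0.09. The Fabp5 ratio became 0.45 without the cell with most of its UMIs in each library.

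In rods (189 RA and 153 OIR cells) Apoe alone reached 50 CPM, and it was counted as higher, against 10.8% of all genes compared higher and 9.62% lower. It stood at 157 CPM from 46 UMIs in RA and 389 CPM from 75 UMIs in OIR, a log2 ratio of 1.31 (0.76 to 1.87). Of the OIR UMIs 50 lay in 1 cell, which also held 14 UMIs of the macrophage list, 11 of the microglia list and 208 of the rod list. Without the top cell of each library the levels were 144 CPM in RA and 132 CPM in OIR, a log2 ratio of -0.12, and the shares at 1000 UMIs were 13.3% (8.34 to 19.8) in RA and 12% (5.93 to 21) in OIR. Rod Apoe was 0.747% of the microglial level in RA and 1.90% in OIR, beside 0.553% and 0.787% for the microglial complement gene C1qa. Fabp5 had 9 and 1 UMIs, Plin2 0 and 5, and Abca1, Soat1 and Scd2 between 1 and 4 in each library.

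The wider lipid pathways were read from 8 lists with 90 genes in all, the 8 genes included. In microglia 27 of the 90 reached 50 CPM, and 4 of them were higher by 2-fold or more and 0 lower, against 6.16% and 6.67% of all genes compared, with a median log2 ratio of 0.27. Beside Lpl, Fabp5 and Plin2 the fourth was Acadl, an enzyme of fatty acid oxidation, which rose from 36.8 to 80.8 CPM, a log2 ratio of 1.13 (0.91 to 1.36). Acadl thus reached 50 CPM in OIR only. The droplet genes Plin3 and Nceh1 gave 0.86 and 0.81, and the lysosomal lipase Lipa 0.85. At the low end were Insig1, a brake on sterol synthesis, at -0.61 and the acyl-CoA binding gene Dbi at -0.56. The cholesterol export list had 6 genes compared in each of microglia, macrophages and monocytes, with 0 past 2-fold in either direction. Abca1 was among them in each class, and Abcg1 in microglia and monocytes. With so few genes 0 is near the background shares of 6.16% to 8.8% per direction. At any level 1 gene of the list was higher by 2-fold or more in each class, and 1 was lower in macrophages. The share of all genes at any level was not counted, so these counts have no background beside them.

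Cholesterol synthesis genes were lower in OIR macrophages. Of the 20 genes on the list, at any level, 18 had a ratio below 0 and 14 were lower by 2-fold or more, with a median log2 ratio of -1.46. In microglia 13 of the 20 were below 0 and 3 lower by 2-fold or more, with 0 higher and a median of -0.56. Monocytes had 9 of 19 below 0, with 2 lower and 5 higher by 2-fold or more and a median of 0.15. The share of all genes was counted at 50 CPM or more only, where 6.58% were lower by 2-fold or more in macrophages. The 9 that reached 50 CPM did so in RA and not in OIR, so the limit favoured genes high in RA, and their median was -1.91. Stard4, a sterol carrier, fell from 54.7 to 10.4 CPM (-2.40), Cyp51 from 75.3 to 16.6 CPM (-2.18), Idi1 from 81.6 to 18.7 CPM (-2.13) and Insig1 from 145 to 36.6 CPM (-1.99). For macrophages the list was not recounted without cells richer in microglial markers than in their own. The part of microglial transcripts in these ratios was not tested. The droplet and esterification list had Plin2 and Nceh1 higher (1.39 for Nceh1), and the lipid transfer gene Pltp was higher at 1.36.

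In monocytes 35 of the 90 genes reached 50 CPM, with 6 higher and 3 lower by 2-fold or more, against 6.49% and 7.57% of all genes compared, so the lower genes were near the background share. Among the lower genes were Pltp, from 199.1 to 33.5 CPM (-2.57), and Dbi at -1.27. The higher ones beside Apoe, Lpl and Fabp5 were Trem2, a lipid-sensing receptor, at 1.58, Nceh1 at 1.5 and the scavenger receptor Msr1 at 1.17. OIR monocytes held more of the microglia list, at 8468 CPM against 4639 CPM in RA. Lpl and Fabp5 fell to 0.18 and 0.15 without cells richer in the 10 microglial markers than in their own. For the other list genes that count was not made, and the part of microglial transcripts in their ratios was not tested. One synthesis gene, Srebf2, reached 50 CPM in monocytes, at -0.22.

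**Figure D5:**
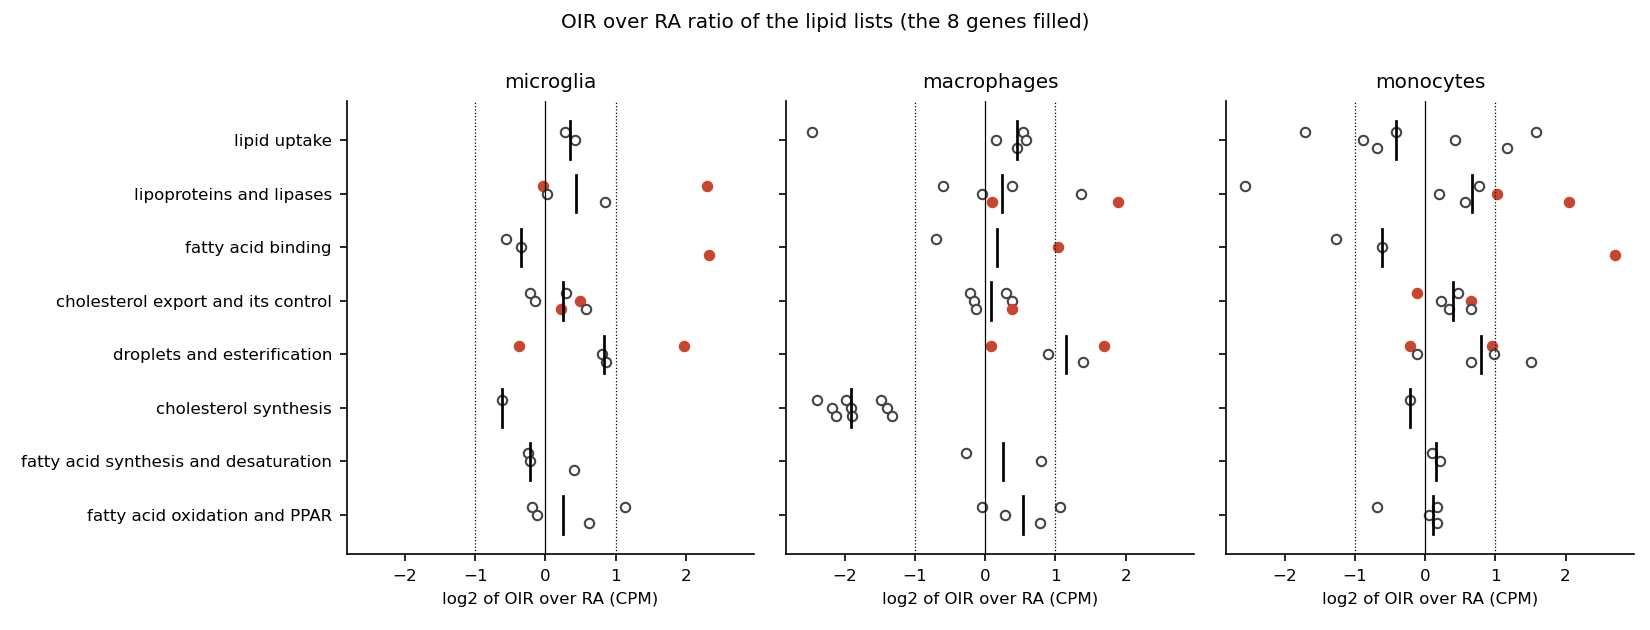
Log2 ratio of OIR over RA for each gene of the 8 lipid lists that reached 50 CPM, in microglia, macrophages and monocytes; filled points are the 8 genes followed here, bars are the list medians and dotted lines mark 2-fold. The 9 cholesterol synthesis genes drawn for macrophages, each at 50 CPM in RA and below it in OIR, lie to the left of 2-fold with a median of -1.91.

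Likeness of pattern was measured as Pearson's r of log2 CPM (pseudocount 10) over 22 groups of cells against 4215 genes. Each group was a class or cluster in 1 library with at least 20 cells, with microglia and macrophages entered by cluster. Rods and the unnamed cluster led by Mir124a-1hg were among them. They held Apoe at 157 to 2010 CPM, against 7752 CPM in RA monocytes, the lowest of the other groups. The part of this gap in r was not tested. The groups share 2 libraries and differ in depth and nuclear RNA, and the values are descriptions. Lpl was most like Creg1 (0.96), Ctsd (0.95) and Sdf2l1 (0.94), and Fabp5 was most like Vat1 (0.85), Capg (0.83) and Egln3 (0.82). Plin2 was most like Bak1, Stx4a and Aldh2 (0.94 each), and Apoe most like Lmo2, Lamp2 and Fcgr3 (0.98 each). Abca1 was nearest to Gpr183, Man1a and Klf6 (0.95 each), and Soat1 to Ptafr, Rnf149 and Rgs2 (0.93, 0.93 and 0.92). Abcg1 and Scd2 had no close neighbour, at 0.70 for Trappc8 and 0.71 for Gclc. Among the 8 genes Apoe and Abca1 (0.85) and Abca1 and Soat1 (0.84) were most alike, followed by Lpl and Plin2 (0.80), Apoe and Lpl (0.77), Apoe and Soat1 (0.74) and Lpl and Fabp5 (0.72), and Abcg1 followed none of the others (-0.19 to 0.37).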

How the data were processed

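The authors deposited 1 matrix of raw UMI counts per gene and cell for each condition, made with Cell Ranger 3.1.0 per the file headers and read on mm10 per the submitters' processing notes, which also name Seurat 4.0. The barcodes in the files equalled the cells the study states, before filtering. As in the study's methods, cells were removed when more than 20% of UMIs were mitochondrial or when they were in the top 2% by number of genes.

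Seurat 5.3.0 (R 4.3.3, SeuratObject 5.2.0, Matrix 1.6.5) was used for integration (canonical correlation, 3000 anchor genes) without the 8 genes and the lipid lists (30 dimensions, k of 20, seed 1, genes in at least 3 cells). Clusters were made at resolution 0.5, and those in which at least 10% of cells had a Ptprc UMI were clustered again at 0.8. Clusters were named from the marker list best represented in their top 10 genes or, failing that, by median ratio, and this rule was written once the clusters had been seen, so clusters and names may differ from the study's.

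UMIs were summed per class and library in Python 3.11.15 (pandas 2.3.3, scipy 1.17.1, numpy 2.4.6), and plots used matplotlib 3.10.9. Intervals at 95% were exact Poisson for levels, exact conditional for ratios and exact binomial for shares, with a floor of 3 UMIs for a group at 0, and were tested on simulated data. A gene was compared at 50 CPM or more in 1 of the groups and counted at 2-fold or more. For rods the value over the 8 genes is that of Apoe, the gene that reached 50 CPM. Scrublet (scanpy 1.11.5) called 1 RA and 2 OIR cells as doublets, 0.0772% and 0.170%, too few to count as a working call.

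The 8 genes, the lists and the comparisons were chosen with earlier results of these data known. Named beyond the 8 were at most 4 genes of a list with the largest ratios and the 3 genes nearest in pattern to each of the 8. A few genes that these rules or the lists would name are not reported here. Alternatives were the anchor genes, integration, resolution, filters on cells, scaling, thinning and doublets, and those on top cells, microglial transcripts, single clusters and lists without a level limit were chosen after seeing the data. Promoters came from RefSeq (GRCm38.p6).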

Additional observations from a re-analysis of the deposited data

Results flagged for a closer look

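Pltp, a phospholipid transfer protein gene on the lipoprotein list, moved in opposite directions in macrophages and monocytes. Its log2 ratio of OIR over RA was 1.36 (0.94 to 1.80) in macrophages, from 54.7 to 140 CPM, and -2.57 (-3.20 to -1.99) in monocytes, from 199.1 to 33.5 CPM. The difference between the classes was not tested, since each condition had 1 library.

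Outside the 5 classes, vessel cells, which the sort should have removed, held Fabp5 at 1776 CPM in OIR, from 201 UMIs in 8 of 11 cells, and had 0 Fabp5 UMIs in 7 RA cells. One OIR cell held 100 of these UMIs, and 1144 CPM remained without it. The vessel cells of the libraries also differed in kind, with the pericyte list at 140 CPM in RA and 14441 CPM in OIR and the endothelial list at 9963 and 1697 CPM. The part of that mixture in the Fabp5 level was not tested.

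A cluster without a name, led by Mir124a-1hg and the photoreceptor gene Rpgrip1 (117 RA and 80 OIR cells), held Apoe at 560 CPM in RA and 2010.0 CPM in OIR. A single OIR cell carried 789 of the 960 OIR UMIs, and without the top cell of each library the levels were 317 and 375 CPM.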

How the results depend on the processing

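Each condition was 1 library, so no replicate was left out. No paired analysis was possible because each condition had 1 library. Of 83 values of the main comparisons under alternative settings 75 were counted as the same, 6 as moved and 2 as reversed. Of 548 values for single genes 439 were counted as the same, 104 as moved and 5 as reversed. A change of sign was counted as reversed only where the main value was at 2-fold or more. The medians of dividing cells after thinning and of activated over homeostatic OIR microglia without integration, given below, changed sign and were counted as moved. Small ratios also changed sign, as for Soat1 in macrophages, from 0.08 to -0.16 on the log2 scale with no filter on the number of genes.

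The median over the 8 genes in dividing cells, 0.26, became 1.05 without integration and -0.58 after thinning, which left 15 RA cells. Abcg1 turned to 0.59 without integration and Plin2 to -0.11 after thinning. In monocytes the median of 0.99 became 0.15 once cells with more of 10 microglial markers than of their own were left out. For rods, with Apoe as the value, 1.31 became -0.071 without cells under 0.1% Malat1, 0.24 as a mean over cells and -0.12 without the top cells. A single OIR cell held most of the OIR Apoe UMIs, and its part in the Malat1 and mean values was not tested. Without integration the median of activated over homeostatic OIR microglia, 0.78, became -0.66 and the Lpl ratio, 1.57, became -0.91, with 16 homeostatic cells. The count of cholesterol synthesis genes lower in OIR macrophages, 9 at 50 CPM or more, was 14 at any level.

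Counting error was small in microglia, as for Fabp5 in RA at 53.1 CPM (48.2 to 58.4), and spanned several-fold for most rod values.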
